A study of Mus musculus with 12 samples.

Results

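The livers of double null mice were compared with the livers of Dscr-1 null mice on 4 of the 12 arrays of the series, the 2 liver arrays titled for joint loss of Dscr-1 and ApoE and the 2 titled for loss of Dscr-1 alone. The arrays were chosen by title only, with no measured value used. All 4 arrays came from mice that lacked Dscr-1 by label, so that the genotypes differed by label in ApoE alone. No WT array entered the difference. The mice were adult C57BL/6J, and the labels give HFD (a high-fat diet) for 12 weeks, whereas the results section of the study gives normal chow for the arrays, so the diet is not settled here. ApoE null livers (2 arrays) and WT livers (2 arrays), with the same strain, age and diet labels, gave a second comparison of ApoE loss that shares no array with the first. The 4 arrays of cultured aortic endothelial cells were not used. The labels do not say whether the 2 arrays of a genotype came from separate mice, so the p-values measure a spread between arrays. In the main fit that spread, and with it each SE, was pooled within genotypes over all 8 liver arrays. The WT and ApoE null arrays therefore enter the SE and p-values, though not the difference.

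ApoE is the apolipoprotein by which remnant lipoproteins are bound and cleared in the liver, and mice without it accumulate cholesterol in plasma. The liver holds a large resident macrophage population, the Kupffer cells, which line the sinusoids and take up lipoproteins, and macrophages loaded with lipid are known to express galectin-3, lipases and lysosomal proteases. Dscr-1, encoded by Rcan1, is a feedback inhibitor of calcineurin, the phosphatase that activates NFAT transcription factors.

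Each array gave a signal for 45037 probe sets, of which 32005 passed the filter on low signal and stood for 14855 genes, each read from its brightest probe set. The 4 arrays had median signals of 32.6 to 37.6. The double null arrays correlated with each other at 0.8793 and the Dscr-1 null arrays at 0.8894 across probe sets on the log2 scale, and the pairs of unlike genotype at 0.8785 to 0.8884, so the genotypes did not separate over all genes. Of the 8 liver arrays 1 stood apart, ApoE null replicate 1, with a mean correlation of 0.8393 with the other 7 against 0.8746 to 0.8851 for the rest. Differences below are double null minus Dscr-1 null on the scale of log2(signal + 16), each with its SE, and 1 unit on that scale is 2-fold for bright genes and understates the change of dim ones.

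Apoe itself fell in double null livers. Its signal was 83.7 and 79.8 in double null livers, against 21510.3 and 19937.4 in Dscr-1 null livers. The mean signal in Dscr-1 null livers was 253.5 times that in double null livers. The difference was −7.73 ± 0.38 (SE), with an adjusted p of 0.00147 by limma. In the separate comparison Apoe was 305.0 and 177.1 in ApoE null livers and 20045.3 and 19962.9 in WT livers, which matched the ApoE labels of all 8 liver arrays. Apoe was the only one of the 14855 genes past an adjusted p of 0.05 (0.00673%). At an unadjusted p under 0.05, 423 genes were higher in double null livers (2.85%) and 225 were lower (1.51%), and among bright genes, those with a mean signal of at least 100 on the 4 arrays, 82 were higher (1.31%) and 22 lower (0.351%) out of 6269.

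The Dscr-1 label could not be checked in the same way. Rcan1 had a signal of 491.5 and 209.5 in double null livers, against 255.2 and 353.1 in Dscr-1 null livers, and the 2 genotypes overlapped. A second, dim probe set of Rcan1 gave 44.7 and 21.8 in double null livers and 7.5 and 5.1 in Dscr-1 null livers. Whether either probe set reads the exons that were removed is not stated in the sources used here. Of 13 calcineurin, NFAT and Rcan genes measured, 8 were higher and 5 lower, with a median of 0.09 beside 0.01 over all genes, and none reached an unadjusted p of 0.05.

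Genes of macrophages and of antigen presentation were among those highest in double null livers relative to Dscr-1 null livers. Over 2-fold apart with no overlap between the genotypes were 728 genes higher in double null livers (4.9%) and 406 lower (2.73%), many of them dim. Among the 6269 bright genes 974 were higher without overlap (15.5%) and 1271 lower (20.3%), of which 92 were over 2-fold higher (1.47%) and 29 over 2-fold lower (0.463%). Apart from Apoe, none of the genes named from here on passed the adjusted threshold in the limma fit as first specified, where those higher in double null livers had an adjusted p of 0.735 or more. With a variance trend, by which the spread is fitted to brightness, and robust estimation, both switched on together in limma, 28 genes passed (0.188%), 26 higher and 2 lower in double null livers. With an offset of 64 in place of 16, 9 genes passed (0.0606%), all of them among the 28. Of these 28 genes, 11 belong to the 2 macrophage lists or the MHC class II list. Those lists hold 27, 19 and 11 of the 14855 genes, with Ctss in 2 of them. The lists were chosen with earlier results of these data known, so the count of 11 is a description only. Apoe included, 25 of the 28 lay without overlap in the same direction between ApoE null and WT livers. There 17.3% of all genes were higher and 16.7% lower without overlap. In that comparison 11 of the 28 had an adjusted p under 0.05 in limma with the trend and robust estimation.

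The highest difference among genes with a mean signal of at least 100 was that of Lgals3, the gene of galectin-3, a lectin of activated macrophages. Lgals3 had a signal of 2008.3 and 1051.0 in double null livers, against 131.2 and 95.1 in Dscr-1 null livers. Both double null arrays lay above both Dscr-1 null arrays by at least 8-fold, and the difference was 3.52 ± 0.55 (adjusted p = 8.2e-07 with the trend and robust estimation in limma, 0.735 without). Clec7a, the gene of the beta-glucan receptor dectin-1, had 975.7 and 628.4 in double null livers, against 154.7 and 138.7 in Dscr-1 null livers, with a difference of 2.30 ± 0.39. Its genotypes did not overlap, and its adjusted p in limma was 9.38e-07 with the trend and robust estimation. Gpnmb, a glycoprotein of lipid-laden macrophages, had 425.8 and 214.3 in double null livers and 57.9 and 8.2 in Dscr-1 null livers. The genotypes did not overlap, but the Dscr-1 null arrays were 7-fold apart, and Gpnmb did not pass with either variance model.

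Lysozyme, complement and scavenger genes of macrophages followed. Lyz2, which encodes the lysozyme of phagocytes, had a signal of 1557.0 and 932.7 in double null livers, against 309.6 and 268.7 in Dscr-1 null livers. The genotypes did not overlap, with a difference of 2.0 ± 0.40. The probe set of Lyz1, a near-identical gene, gave 3575.4 and 2004.3 in double null livers and 564.2 and 362.5 in Dscr-1 null livers, and signal shared between the 2 lysozyme genes cannot be told apart. Cd5l, a secreted scavenger-receptor protein made by tissue macrophages, had 7665.9 and 5471.1 in double null livers and 1644.5 and 1744.8 in Dscr-1 null livers. Its genotypes did not overlap, with a ratio of mean signals of 3.88 and a difference of 1.92 ± 0.46. C1qb, a chain of complement C1q, had 1094.0 and 521.3 in double null livers and 312.9 and 189.9 in Dscr-1 null livers. C1qc, a second chain, had 1421.5 and 765.4 in double null livers and 398.0 and 408.4 in Dscr-1 null livers. In both genes the second double null array lay nearer to the Dscr-1 null arrays than the first, without reaching them.

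**Figure D1:**
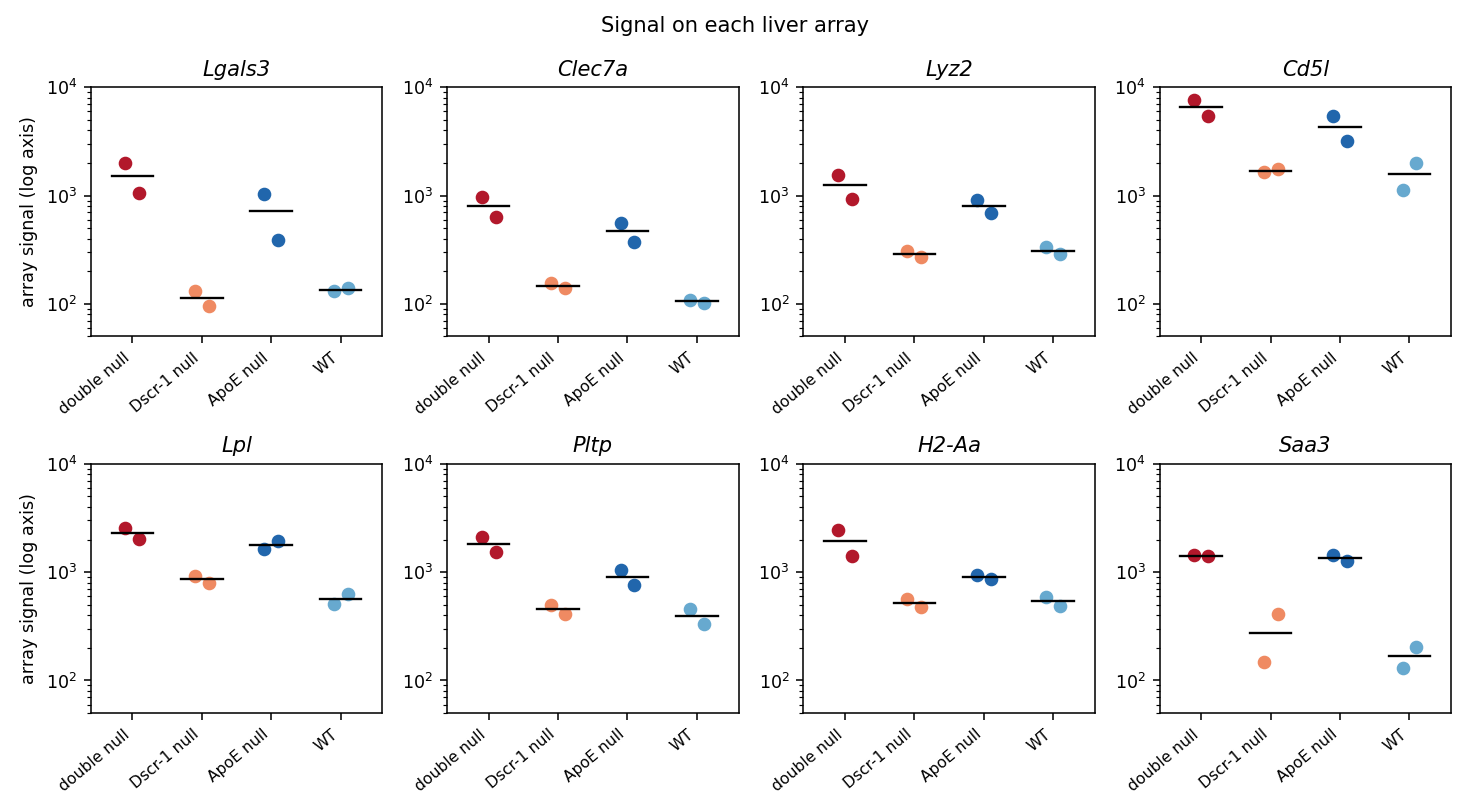
Signal of 8 genes on each of the 8 liver arrays, on a log axis, by genotype, with a point for each array and a line at the mean of 2. In double null livers every point lies above both Dscr-1 null points, as the ApoE null points lie above both WT points, with Lgals3 at 2008.3 and 1051.0 in double null livers and 131.2 and 95.1 in Dscr-1 null livers.

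The Kupffer and macrophage core list held 27 measured genes, of which 26 were higher in double null livers and 1 was lower, where 51.3% of all genes were higher and 48.7% lower. Without overlap 18 were higher and 0 lower, where 17.8% of all genes were higher and 16.3% lower without overlap. These shares also stand beside the counts without overlap of every list below in double null against Dscr-1 null livers. The median difference of the list was 1.08, beside 0.01 over all genes, and 12 of the 27 were higher at an unadjusted p under 0.05. The summed signal of the 27 genes was 31174.8 and 21242.9 in double null livers, against 13263.3 and 10661.0 in Dscr-1 null livers. The first double null array carried the higher sum, and without it the median difference of the list was 0.74. This list, like the others, was chosen with earlier results of these data known, so its counts beside the shares over all genes are a description only. In RNA of the whole liver, more macrophages and more of these transcripts per macrophage cannot be told apart.

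Members of this list did not differ alike. Cd68, a lysosomal membrane protein of phagocytes, had a signal of 445.2 and 189.1 in double null livers and 121.3 and 59.4 in Dscr-1 null livers, and Tyrobp, the adaptor of activating myeloid receptors, 1131.1 and 470.4 in double null livers and 357.5 and 99.8 in Dscr-1 null livers. Clec4f, a lectin restricted to mouse Kupffer cells, differed by less, with 1062.9 and 748.0 in double null livers and 704.3 and 458.5 in Dscr-1 null livers (0.64 ± 0.45). Vsig4, a complement receptor of resident Kupffer cells, had 1017.0 and 739.3 in double null livers and 645.9 and 392.5 in Dscr-1 null livers (0.76 ± 0.45). Both of these resident markers lay higher in double null livers without overlap, yet by less than Lyz2 or Cd5l. Adgre1, the gene of F4/80, had 163.4 and 193.8 in double null livers and 151.6 and 204.8 in Dscr-1 null livers, with overlap and a difference of 0.01 ± 0.43. Timd4, a phosphatidylserine receptor of long-lived Kupffer cells, overlapped as well, with 113.8 and 55.1 in double null livers and 117.7 and 31.0 in Dscr-1 null livers. Cd163, the haemoglobin scavenger receptor, was the 1 member lower in double null livers, with 30.7 and 64.5 there, against 54.7 and 156.6 in Dscr-1 null livers, and these ranges overlapped. Cd68, Tyrobp, Clec4f, Vsig4, Adgre1, Timd4 and Cd163 were picked after their values were seen.

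**Figure D2:**
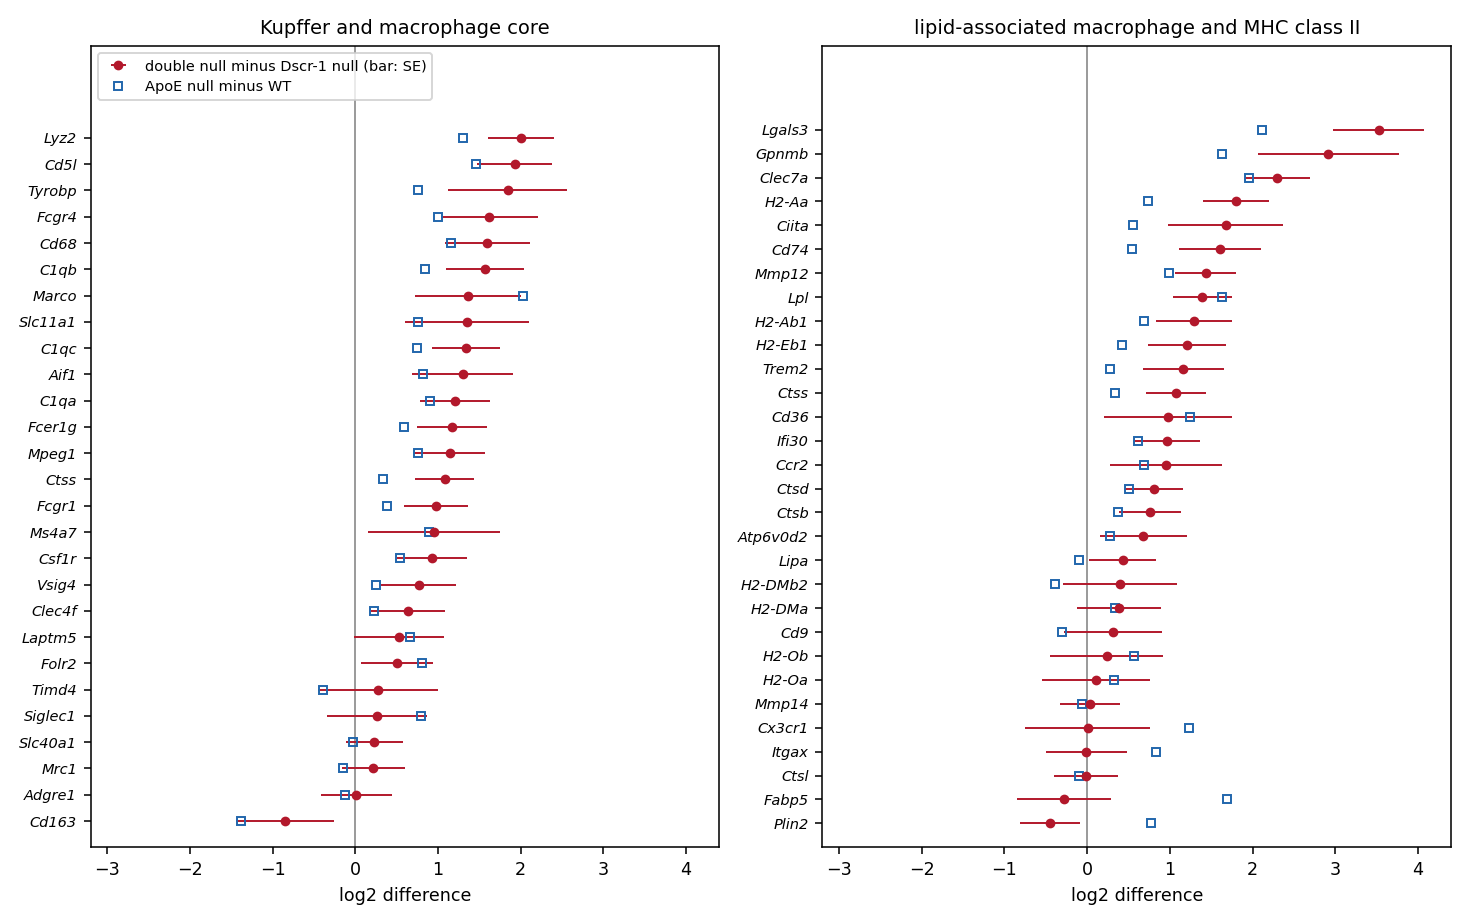
Log2 difference of each measured gene of the macrophage and MHC class II lists, ordered by size, for double null minus Dscr-1 null livers (filled circles, bars show the SE of the fit) and for ApoE null minus WT livers (open squares). Lgals3 at 3.52 and Lyz2 at 2.0 head their panels, and Adgre1 lies at 0.01.

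Genes of macrophages that handle lipid were mixed. Of 19 measured lipid-associated macrophage genes, 15 were higher in double null livers and 4 lower, 12 higher and 1 lower without overlap, with a median of 0.76, and 6 were higher at an unadjusted p under 0.05. Lpl, the lipoprotein lipase that hydrolyses triglycerides of lipoproteins, had a signal of 2572.4 and 2008.6 in double null livers, against 917.9 and 797.7 in Dscr-1 null livers. The genotypes did not overlap, and the difference of 1.39 ± 0.36 had an adjusted p of 0.000697 with the trend and robust estimation in limma. Pltp, the phospholipid transfer protein that remodels HDL, had 2120.8 and 1537.7 in double null livers and 493.1 and 413.2 in Dscr-1 null livers, again without overlap (1.96 ± 0.39). A second probe set of Pltp differed by 1.63. Trem2, the lipid-sensing receptor of these macrophages, was dim, at 32.6 and 68.8 in double null livers and 16.9 and 9.0 in Dscr-1 null livers. Plin2, which coats lipid droplets in hepatocytes and macrophages, lay the other way, with 4437.4 and 3216.5 in double null livers and 5529.2 and 4793.1 in Dscr-1 null livers, without overlap (−0.44 ± 0.36). Trem2 was picked after its values were seen. Of 18 lysosome and cathepsin genes, 12 were higher and 6 lower, with a median of 0.25 that was 0.06 without double null replicate 1. Among them Ctss, the cathepsin of antigen-presenting cells, had 1669.1 and 1290.3 in double null livers and 651.8 and 722.1 in Dscr-1 null livers.

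MHC class II genes were higher together. These genes encode the alpha and beta chains that present peptides to CD4+ T cells, and many of their promoters carry a Y box near the start. All 11 measured genes of the list were higher in double null livers, 7 of them without overlap and the same number at an unadjusted p under 0.05, with a median of 1.08. H2-Aa, an alpha chain, had a signal of 2426.3 and 1420.3 in double null livers, against 566.7 and 480.4 in Dscr-1 null livers. The genotypes did not overlap, with a difference of 1.80 ± 0.40, and its 3 other probe sets differed by 1.41 to 2.36. Cd74, the invariant chain, had 1081.2 and 440.3 in double null livers and 240.8 and 195.3 in Dscr-1 null livers. H2-Ab1, the partner beta chain of H2-Aa, had 448.1 and 193.2 in double null livers and 120.4 and 102.5 in Dscr-1 null livers. H2-Eb1, a further beta chain picked after its values were seen, had 859.2 and 379.6 in double null livers and 292.0 and 195.1 in Dscr-1 null livers. In Cd74, H2-Ab1 and H2-Eb1 the first double null array was more than 2-fold above the second, and both lay above the Dscr-1 null arrays. Ciita, the transactivator of this gene family, was dim, at 82.9 and 52.5 in double null livers and 19.0 and 3.0 in Dscr-1 null livers.

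The promoters of H2-Aa and H2-Eb1 are shown because both genes were higher in double null livers and both windows carry the Y box letters CTGATTGG, in capitals. They come from RefSeq on build GRCm38.p6 and run from 250 bases before to 50 after the gene start, H2-Aa on the minus strand of chr17:34287774-34288073 and H2-Eb1 on the plus strand of chr17:34305617-34305916.
H2-Aa: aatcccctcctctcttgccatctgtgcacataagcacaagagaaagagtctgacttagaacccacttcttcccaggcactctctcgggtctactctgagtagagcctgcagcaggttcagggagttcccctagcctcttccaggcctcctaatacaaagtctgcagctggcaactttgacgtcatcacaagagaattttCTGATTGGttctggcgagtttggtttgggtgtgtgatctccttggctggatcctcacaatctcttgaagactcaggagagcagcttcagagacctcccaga
H2-Eb1: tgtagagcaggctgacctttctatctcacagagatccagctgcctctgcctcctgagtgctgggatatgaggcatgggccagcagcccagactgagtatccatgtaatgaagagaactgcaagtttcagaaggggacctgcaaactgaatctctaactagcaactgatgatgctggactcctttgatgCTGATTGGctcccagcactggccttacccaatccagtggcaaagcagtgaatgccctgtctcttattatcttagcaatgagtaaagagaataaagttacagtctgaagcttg
The capitals begin 51 bases before the start in H2-Aa and 62 bases before it in H2-Eb1. Searched on both strands, the 8 letters were found in 1346 of 32851 mouse promoters (4.1%). Of the 11 MHC class II list genes 8 had a promoter in the table, and 3 of these held the letters, the third being H2-Oa. H2-Oa had 42.3 and 6.1 in double null livers and 13.7 and 21.3 in Dscr-1 null livers, with overlap.

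Genes of MHC class I, interferon response and leukocyte recruitment were higher to a lesser degree. Of 13 MHC class I and immunoproteasome genes 11 were higher in double null livers and 2 lower, with a median of 0.19 that was 0.03 without double null replicate 1, and none reached an unadjusted p of 0.05. Of 24 interferon response genes 20 were higher and 4 lower, 11 and 3 of them without overlap, with a median of 0.42 that was 0.16 without double null replicate 1 and 0.24 without Dscr-1 null replicate 1. Their summed signal overlapped, at 14540.5 and 11123.5 in double null livers and 12046.9 and 13072.1 in Dscr-1 null livers. Oas1a, an antiviral oligoadenylate synthetase, had 274.2 and 262.4 in double null livers and 153.3 and 111.7 in Dscr-1 null livers. Of 21 chemokine and adhesion genes 17 were higher and 4 lower, with a median of 0.70 that was 0.27 with an offset of 64 and 1.3 with an offset of 1. Vcam1, the endothelial ligand of monocyte integrins, had 376.8 and 206.2 in double null livers, against 80.7 and 67.5 in Dscr-1 null livers. Icam1, a ligand of leukocyte beta2 integrins, had 169.7 and 122.1 in double null livers and 41.9 and 11 in Dscr-1 null livers. Cxcl1, a neutrophil chemokine, had 672.2 and 723.5 in double null livers and 265.2 and 301.2 in Dscr-1 null livers. The genotypes did not overlap in any of these 3 genes. Itgb2, the beta2 integrin chain itself, had 279.8 and 141.2 in double null livers and 8.7 and 60.1 in Dscr-1 null livers. Cd52 and Cd53, surface proteins of leukocytes in general, differed by 2.08 ± 0.44 and 1.52 ± 0.37.

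Markers of other blood and liver cells differed less as groups. Of 10 neutrophil genes 5 were higher and 5 lower in double null livers, with a median of 0.02. S100a9, a calgranulin of neutrophils and monocytes, stood out, at 172.4 and 102.9 in double null livers, against 9.4 and 7.5 in Dscr-1 null livers, and its partner S100a8 had 168.6 and 180.5 in double null livers and 90.7 and 33.6 in Dscr-1 null livers. Ltf and Ngp, granule genes of neutrophils, were not higher in double null livers, Ltf having 25.5 and 5.5 against 47.3 and 70.2 in Dscr-1 null livers. Of 10 T and NK cell genes 6 were higher and 4 lower (median 0.04), and of 11 B and plasma cell genes 10 were higher and 1 lower (median 0.28), most of them dim. Of 6 dendritic cell genes 2 were higher and 4 lower, with a median of −0.50 that was −0.20 without double null replicate 1 and −0.01 with probe sets averaged. The 14 sinusoidal endothelial genes had a median of −0.04 with 7 in each direction, and the 7 cholangiocyte genes one of −0.05. Of 17 stellate cell and fibrosis genes 13 were higher and 4 lower, 9 and 0 without overlap, with a median of 0.30. Col1a2, a fibrillar collagen chain, had 297.9 and 259.4 in double null livers and 164.4 and 128.9 in Dscr-1 null livers, while its other probe sets were at −0.43 and 0.62.

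The acute phase list had a median near 0, with 13 of 23 genes higher, 10 lower and a median of 0.06. Of its 23 members 4 were over 2-fold higher without overlap, beside 4.9% of all genes and 1.47% of bright genes. Saa3, a serum amyloid A made by macrophages and hepatocytes, had a signal of 1452.1 and 1396.7 in double null livers, against 147.1 and 407.5 in Dscr-1 null livers. The double null arrays were close to each other while the Dscr-1 null arrays differed by more than 2-fold, and the difference was 2.45 ± 0.50. Lcn2, an iron-siderophore carrier, had 812.1 and 458.8 in double null livers and 66.9 and 228.5 in Dscr-1 null livers. Orm2, an orosomucoid, had 275.2 and 282.0 in double null livers and 54.1 and 137.5 in Dscr-1 null livers. For these 3 genes the second Dscr-1 null array was above the first, and neither reached the double null arrays. Orm3, a further orosomucoid, was dim, with 91.2 and 40.7 in double null livers and 13.2 and 10.1 in Dscr-1 null livers. Saa1 and Saa2, the serum amyloid A genes of hepatocytes, overlapped. Saa2 had 1330.5 and 2170.1 in double null livers and 153.9 and 1659.3 in Dscr-1 null livers, and Saa1 6442.7 and 11282.4 in double null livers and 1495.0 and 11724.1 in Dscr-1 null livers. In both, the Dscr-1 null arrays lay far from each other. Saa1 and Saa2 were picked after their values were seen.

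Hepatocyte genes were close to level. The 17 hepatocyte identity genes had a median of 0.02, with 9 higher and 8 lower in double null livers, and Alb, serum albumin, had 35041.6 and 33216.4 in double null livers and 34806.2 and 35103.4 in Dscr-1 null livers. The summed signal of these 17 genes was 226519 and 226154 in double null livers, against 231871 and 228335 in Dscr-1 null livers. In most lists of lipid metabolism more genes were lower than higher, by small amounts, and some of the medians moved with single arrays. The lipid droplet list had 7 genes in each direction (median 0.08). Of 16 cholesterol efflux and LXR target genes, Apoe among them, 13 were lower and 3 higher. Their median was −0.22, and −0.27 to −0.14 with an array left out. Of 23 fatty acid oxidation and PPAR-alpha target genes 19 were lower in double null livers and 4 higher, 9 and 2 of them without overlap, with a median of −0.17 that was −0.06 without double null replicate 2. Of 21 fatty acid synthesis and SREBP1 target genes 16 were lower and 5 higher (median −0.14), where the median was −0.46 without double null replicate 1 and 0.07 without double null replicate 2. Of 22 bile acid genes 15 were lower and 7 higher (median −0.14). Of 16 apolipoprotein genes 14 were lower and 2 higher, with a median of −0.22 that includes Apoe. Apoc4, a neighbour of Apoe in the same gene cluster, had 7085.6 and 6228.4 in double null livers and 10349.3 and 9987.6 in Dscr-1 null livers. The 20 cholesterol synthesis and SREBP2 target genes had a median of −0.04. Respiratory chain subunits were lower in 24 of 29 genes, 11 of them without overlap, by a median of only −0.10. Without overlap 16.3% of all genes and 20.3% of bright genes were lower, and 17.8% and 15.5% were higher. In none of these lists apart from Apoe did more than 1 gene reach an unadjusted p of 0.05 in either direction, beside the 0.351% of bright genes that were lower at that level.

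**Figure D3:**
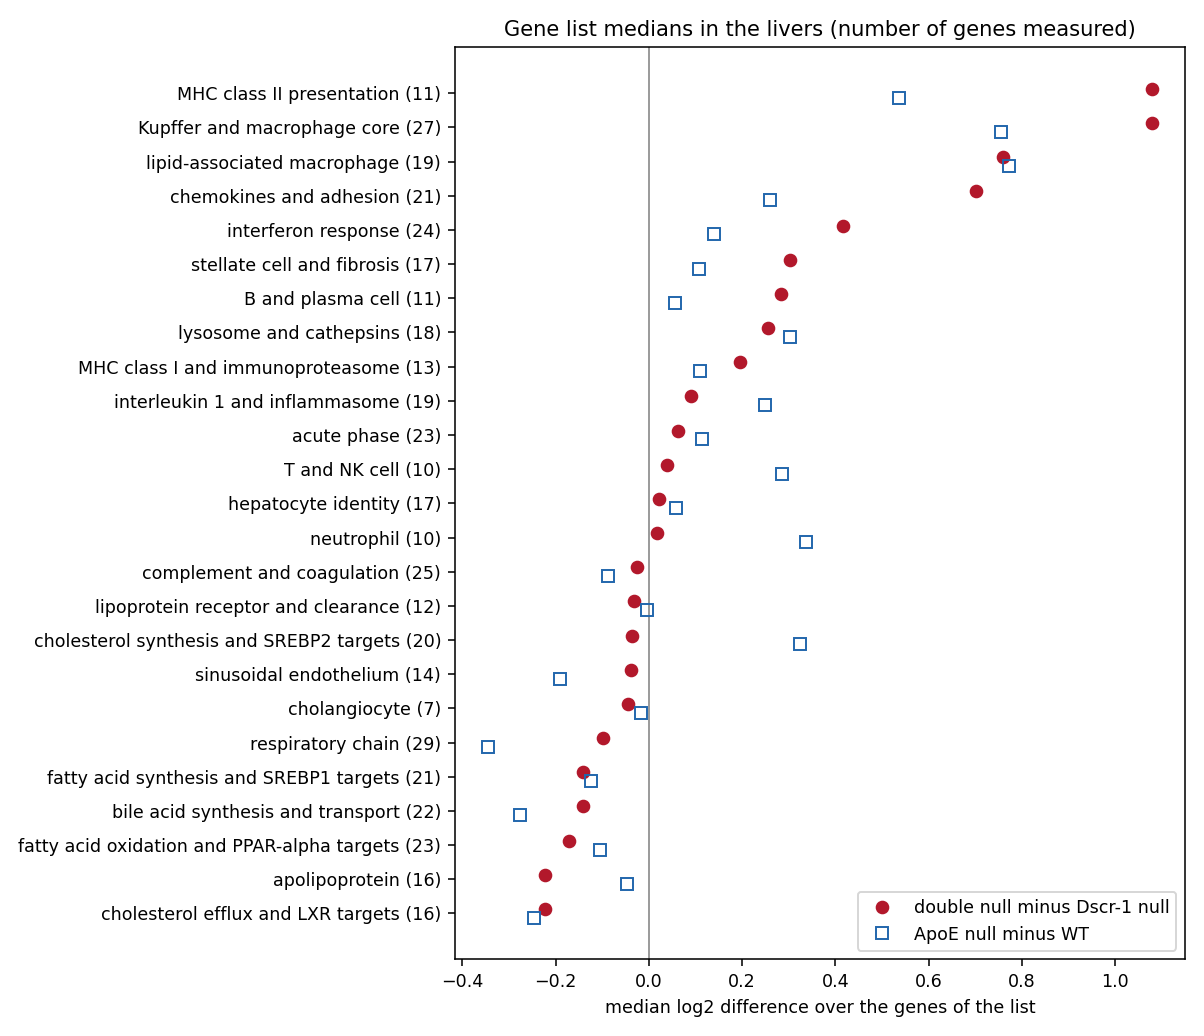
Median log2 difference over the measured genes of 25 of the 44 lists (number of genes in brackets), for double null minus Dscr-1 null livers (filled circles) and for ApoE null minus WT livers (open squares). The MHC class II and the Kupffer and macrophage core lists lie at 1.08 in the first comparison, and the lowest list drawn lies at −0.22 there. Among the lists not drawn is the dendritic cell list, at −0.50.

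Among single genes of lipid and hormone control, Angptl4 and Angptl8, secreted inhibitors of lipoprotein lipase, lay in opposite directions. Angptl4 had 338.6 and 541.7 in double null livers and 870.3 and 737.0 in Dscr-1 null livers, and Angptl8 had 1311.7 and 884.8 in double null livers and 431.3 and 260.8 in Dscr-1 null livers. Neither overlapped between the genotypes. Sqle, the squalene epoxidase of cholesterol synthesis, was dim, with 95.9 and 112.4 in double null livers and 4.8 and 32.1 in Dscr-1 null livers. Gpx3, the secreted glutathione peroxidase, had 194.5 and 170.8 in double null livers and 55.4 and 67 in Dscr-1 null livers. Asns, the asparagine synthetase induced by amino acid shortage, had 110.4 and 144.9 in double null livers and 30.8 and 41.5 in Dscr-1 null livers. For Sqle, Gpx3 and Asns both double null arrays lay above both Dscr-1 null arrays.

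Over 2-fold lower without overlap were 29 bright genes, against 92 over 2-fold higher, although more bright genes were lower than higher without overlap when the size of the difference was not limited. Ech1, an enoyl-CoA isomerase of fatty acid oxidation, had 1188.1 and 819.2 in double null livers, against 2187.4 and 2151.6 in Dscr-1 null livers. The genotypes did not overlap, and Ech1 was the only gene besides Apoe lower in double null livers with an adjusted p under 0.05 in limma with the trend and robust estimation (−1.12 ± 0.38, adjusted p = 0.0142). Ppp5c, the gene of protein phosphatase 5, had 137.4 and 99.8 in double null livers and 332.7 and 299.1 in Dscr-1 null livers, while its 2 other probe sets differed by 0.01 and 0.04. Mdm2, the ubiquitin ligase of p53, had 49.6 and 55.3 in double null livers and 139.7 and 170.1 in Dscr-1 null livers, with its other probe sets at −0.64 and 0.12. Nudt19, a peroxisomal CoA hydrolase, had 191.3 and 208.9 in double null livers and 387.6 and 418.7 in Dscr-1 null livers. Ppp1r2, Fen1, Washc3, Golga4, Erdr1, Naa30 and Sco2 completed the 12 lowest by the rule and differed by −0.86 to −1.69. For Ppp5c, Mdm2 and 3 of these 7 the probe sets disagreed in direction, the others being at −0.31 and 0.57 for Ppp1r2, −0.77 and 0.35 for Washc3 and −0.09 and 0.09 for Golga4.

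Chromosome 7, which carries Apoe, was looked at by itself. Without a limit on size, 20 of its 418 bright genes were lower without overlap in both comparisons of ApoE loss (4.78%), against 293 of all bright genes (4.68% of the 6260 with a chromosome), so the chromosome did not stand apart by that count. Of the 22 bright genes lower at an unadjusted p under 0.05, 6 lie on chromosome 7, which are Apoe, Ppp5c, Ech1, Nudt19, Tmem147 and Cacng7. That is 1.44% of the 418 bright genes of the chromosome (1.2% without Apoe), beside 0.351% of all bright genes, and chromosomes 14, X and 9 had 1.33%, 1.18% and 1.12% from 3, 2 and 4 genes. Lower by over 0.5 on the log2 scale without overlap in both comparisons were 9, Apoe included, of the 413 bright genes of chromosome 7 with a place in the order of protein-coding genes (2.18%) and 37 of 5851 bright genes elsewhere (0.632%). In that order these 9 lie between 317 genes before and 417 genes after Apoe. Besides Apoe, Ppp5c, Ech1 and Nudt19 they are Slc27a5, a bile acid CoA ligase, Opa3, a mitochondrial protein, Blvrb, a biliverdin reductase, Tmem147, a membrane protein, and Cacng7, a calcium channel subunit. Tmem147 had 450.9 and 397.9 in double null livers and 763.3 and 1235.9 in Dscr-1 null livers. Slc27a5 had 3417.5 and 3489.9 in double null livers and 5358.8 and 5500.2 in Dscr-1 null livers. Neither gene overlapped between these genotypes. Opa3, Tmem147 and Cacng7 and the limit of 0.5 were picked after their values were seen, and Opa3 differed by 0.15 when its probe sets were averaged. The strain of origin of the chromosome segment around the targeted Apoe allele is not stated in any source used here, and its part in these values was not tested.

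**Figure D4:**
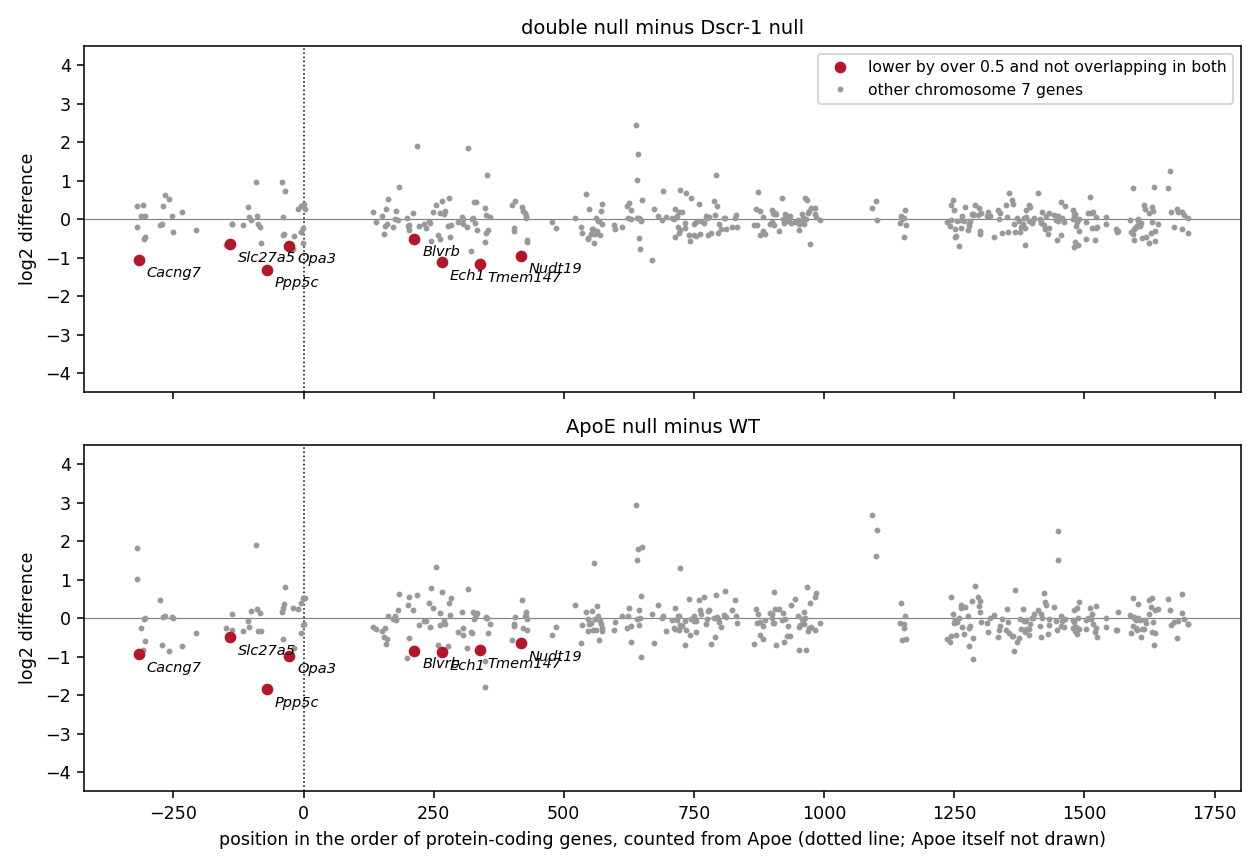
Log2 difference of bright chromosome 7 genes against their place in the order of protein-coding genes counted from Apoe, for double null minus Dscr-1 null livers (upper panel) and ApoE null minus WT livers (lower panel). The 8 marked genes, lower by over 0.5 without overlap in both panels, lie between 317 genes before and 417 genes after Apoe, which is left out of the drawing.

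The genes next to Apoe were not lower together. Of 21 measured neighbours 15 were higher in double null livers and 6 lower, with a median of 0.26. Ercc2, a helicase of DNA repair, was the most different of them, at 23 and 22.9 in double null livers and 87.0 and 110.5 in Dscr-1 null livers, and at 19.4 and 27.5 in ApoE null livers and 83.5 and 52.3 in WT livers. In both comparisons the arrays without ApoE lay below the others, and on those 4 arrays the signal of Ercc2 was under the array median. A second probe set of Ercc2 differed by 0.69, the other way, in double null minus Dscr-1 null livers. Bcl3, a regulator of NF-kappaB, had 117.4 and 120.4 in double null livers and 80.5 and 39.7 in Dscr-1 null livers.

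The separate comparison of ApoE null with WT livers gave the same direction for most of these bright genes. Of the 92 bright genes over 2-fold higher in double null livers without overlap, 83 had a higher signal in ApoE null livers than in WT livers (90.2%), 64 of them without overlap, and 2 were lower without overlap, where 41.4% of all 6269 bright genes were higher. Of the 29 over 2-fold lower, Apoe included, 23 were lower in ApoE null livers (79.3%). Of these 23, 11 did not overlap, and 1 of the 29 was higher without overlap. Most of all bright genes were lower in ApoE null livers too, with a median difference of −0.0651. Without overlap 17.3% of all genes, dim ones included, were higher there and 16.7% lower, and these shares are not given for bright genes alone. Among all 728 genes over 2-fold higher, dim ones included, 473 were higher in ApoE null livers (65%), beside 49.6% of all genes. Among all 406 genes over 2-fold lower, the direction was not shared, with 195 lower in ApoE null livers (48%), 63 of them without overlap, and 82 higher there without overlap. Across the 6269 bright genes the 2 differences correlated at 0.313, and across all 14855 genes at 0.0943. Genes are not independent replicates, and these values are given as a description. Over 2-fold apart without overlap in both comparisons were 30 bright genes in the upward and 5 in the downward direction (0.479% and 0.0798%). Past an adjusted p of 0.05 in limma, ApoE null and WT livers differed in 2 genes (0.0135%), Apoe and Ang.

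In ApoE null livers Lgals3 had 1044.2 and 387.8, against 132.5 and 138.9 in WT livers. Clec7a had 556.5 and 375.8 in ApoE null livers and 108.4 and 102.9 in WT livers. Saa3 had 1442.7 and 1275.1 in ApoE null livers and 131.3 and 203.1 in WT livers. None of these 3 genes overlapped between the genotypes, as they did not in the Dscr-1 null background. The macrophage core list had a median of 0.76 in ApoE null minus WT livers and the MHC class II list one of 0.54, with 22 of 27 and 10 of 11 genes higher. Without overlap 16 of the 27 macrophage genes were higher and 2 lower there, beside 17.3% and 16.7% of all genes, and 13 of the 27 were higher without overlap in both comparisons, beside 3.9% of all genes higher and 3.11% lower in both. The lipid-associated macrophage list had 0.77.

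**Figure D5:**
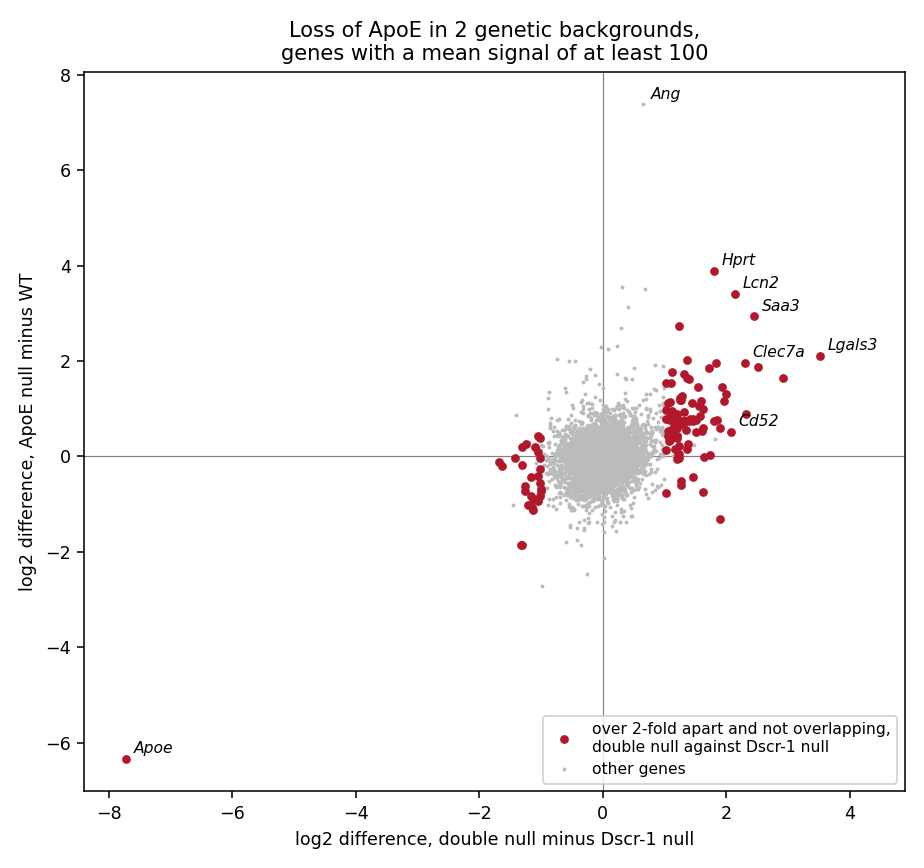
Log2 difference of each of 6269 bright genes in double null minus Dscr-1 null livers (x axis) and in ApoE null minus WT livers (y axis), which share no array. The marked genes, 92 higher and 29 lower by over 2-fold without overlap in the first comparison, lie mostly in the upper right and lower left, with Apoe at −7.73 and −6.33.

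Whether the effect of ApoE loss differed between the backgrounds was tested as the interaction, double null minus Dscr-1 null less ApoE null minus WT. In the limma fit 0 of 14855 genes passed (0.0%), with 653 at an unadjusted p under 0.05 (4.4%). With the trend and robust estimation 5 genes passed (0.0337%), and with the offset of 64 the number was 2 (0.0135%), Ang and Ctse. For Lgals3 the interaction was 1.41 (adjusted p = 0.994 in limma). For H2-Aa it was 1.06 (adjusted p = 0.98 in limma), and neither passed, nor did that of Lyz2 at 0.70. A difference between the backgrounds in these genes was not detectable with 2 arrays per genotype. S100a9 had 39.4 and 69.9 in ApoE null livers and 45.7 and 33.6 in WT livers, with an interaction of 2.30 (unadjusted p = 0.0045, adjusted p = 0.755 in limma). Plin2, lower in double null than in Dscr-1 null livers, had 5621.2 and 6819.0 in ApoE null livers and 3420.2 and 3828.2 in WT livers, with an unadjusted p of 0.0463 for the interaction in limma. Vnn1, a pantetheinase and PPAR-alpha target and 1 of the 5 that passed with the trend and robust estimation, had 537.7 and 415.4 in double null livers and 879.1 and 904.3 in Dscr-1 null livers, against 1588.4 and 737.0 in ApoE null livers and 568.6 and 501.6 in WT livers. Its difference was −0.89 in the Dscr-1 null background and 1.0 in the other.

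In the other 4 genes that passed for the interaction, WT livers lay apart from the remaining genotypes on the probe set read. Ang, the gene of angiogenin, had 20982.3 and 22270.3 in double null livers and 8448.9 and 22375.2 in Dscr-1 null livers, which overlapped, and 82.7 and 93.3 in WT livers. Ctse, cathepsin E, had 68.4 and 56.3 in double null livers and 86.6 and 53 in Dscr-1 null livers, and 744.8 and 1070.1 in WT livers. Other probe sets did not all show this. A further probe set of Ang had 828.0 and 948.0 in ApoE null livers and 1067.1 and 815.8 in WT livers. A further one of Ctse had 121.4 and 46.7 in ApoE null livers and 55.2 and 52.1 in WT livers. That probe set of Ctse was higher in double null livers without overlap, at 78.1 and 119.1, against 5.6 and 5.5 in Dscr-1 null livers (2.39). Rpgrip1, a protein of the photoreceptor cilium, and A2ml1, a protease inhibitor of the alpha-2-macroglobulin family, were low in WT livers, as Ang was, while Ctse was high there. Double null and Dscr-1 null livers differed by 0.32 and 0.69 in them. Hprt, the purine salvage enzyme, split the Dscr-1 null arrays themselves, with 884.2 and 912.6 in double null livers and 819.7 and 65.9 in Dscr-1 null livers. The second Dscr-1 null array lay near the WT arrays, at 46.9 and 54.8, and the first near the double null arrays.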

How the data were processed

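Liver RNA was read on Affymetrix Mouse Genome 430 2.0 arrays. Per the study's methods, the authors made MAS5 signals with each array's average set to 100, deposited as linear intensities. The deposited log2 values of the aortic arrays, whose normalization is not stated, were not used. Transcriptome Analysis Console is named in the processing notes of the submitters.

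Of 45101 probe sets 64 controls were left out. Of the rest, 34945 had 1 gene symbol, 932 several and 9160 none, and 34741 of these symbols were updated by Entrez ID. Probe sets above the array median on at least 2 of 8 liver arrays were kept, and the brightest stood for a gene. log2(signal + 16) was fitted in limma (version 3.58.1, R 4.3.3) with the 4 genotypes, 4 residual degrees of freedom and Benjamini-Hochberg adjustment at 0.05. The scripts were tested on simulated data.

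Named by rule were Apoe, Rcan1 and Hprt, the 12 largest rises and 12 largest falls among non-overlapping genes with a mean signal of at least 100 (filled up by lowest p where none passed), up to 4 genes of lowest p in each of 44 lists, and the Apoe neighbours. Others are said to have been picked after their values were seen, and include Gpnmb, Alb, Ciita, H2-Oa, Ngp, Ctse and Rpgrip1. Members and lists were chosen with earlier results of these data known. With 2 arrays per genotype, their number limits the precision. Alternatives were other offsets, quantile normalization, no filter or one on the 4 arrays, the mean over probe sets, a variance trend with robust estimation, the 4 arrays alone, a replicate block, the methods' t-test and each array left out. Same-numbered arrays of 2 genotypes deviated together with correlations of 0.0005 to 0.0322 across genes.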

Additional observations from a re-analysis of the deposited data

How the results depend on the processing

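The call of Apoe as the only gene past the threshold depended on the variance model and on single arrays. An offset of 64 gave 9 genes, and a variance trend with robust estimation, set together and not tried apart, 28, while the fit of the 4 arrays alone and the methods' t-test gave 0 each (before adjustment the t-test had 511 higher and 418 lower genes at p under 0.05, and its lowest adjusted p was 0.456). Leaving out an array gave 0 to 1, with 0 only without Dscr-1 null replicate 1, where Apoe had an adjusted p of 0.0513 in limma. The difference of Apoe was −7.78 to −7.67 with an array left out, and −7.73 with an adjusted p of 0.0791 in limma with the 4 arrays alone. The interaction gave 2 genes with an offset of 64 and 5 with the trend and robust estimation, and 0 with any array left out. Genes over 2-fold apart without overlap numbered 1134, against 86 with an offset of 64 and 1990 to 2150 with an array left out. Those with the same direction in ApoE null and WT livers numbered 668, against 76 with an offset of 64 and 618 to 1262 with an array left out. Under the replicate block 1 gene passed, as without it. The same-numbered arrays share only a number, and no call changed.

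For 44 list medians, 299 of 352 values stayed within the spread between pairs of arrays and 53 lay beyond it. With an array left out, some list medians took either sign, such as those of acute phase (−0.06 to 0.13) and B and plasma cell (−0.02 to 0.69). With all arrays these 2 medians were 0.06 and 0.28. The macrophage core median was 0.74 to 1.5 and the MHC class II median 0.76 to 1.39 with an array left out. Of 1140 values of 76 genes besides Apoe, 1097 kept direction and side of the threshold, 26 came to pass it and 17 turned direction. With the mean over probe sets Opa3 was 0.15 and Ctse 1.14, and with an offset of 1 H2-Oa was −0.046. With an array left out, the difference was −0.49 to 0.68 for Rcan1, −0.050 to 1.35 for Ang, −0.19 to 0.21 for Adgre1 and −0.48 to 1.03 for Timd4. It was −0.074 to 0.0036 for Alb, −0.39 to 0.18 for Ctse, −0.051 to 0.68 for Rpgrip1 and −0.59 to 0.81 for H2-Oa. For Saa1 it was −0.46 to 2.5.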
